A study of Mus musculus with 33 samples.

Results

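The Polycomb group genes followed here encode 31 subunits of the Polycomb repressive complexes PRC1 (20 genes) and PRC2 (11 genes). They were picked out by gene symbol from a count table of 24391 genes, and all 31 passed the filter on low counts that left 15179 genes for testing. RNA was measured by poly(A) RNA-seq in mouse embryonic stem (ES) cells of 2 lines, with 1 library per line on each of days 0, 5, 6, 7, 8 and 10 of differentiation. Both lines have the hybrid background CAST/Ei x 129/Sv/Jae, and their genotypes are given as wildtype, written WT here, and RepB. The edit behind the name RepB is not described in the labels, while the series title names repeats A and B of Xist, the noncoding RNA that starts X-chromosome silencing in female cells. Day 0 cells had been kept with LIF on irradiated mouse fibroblast feeders. The feeders were then taken away, and the cells formed embryoid bodies that were plated on gelatin at day 4. With 1 library per line and day, each p below rests on 1 time course of 1 line per genotype. The spread between cultures or clones is not measured.

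PRC1 and PRC2 keep developmental genes repressed by marking histones. PRC1 attaches ubiquitin to histone H2A through a RING-finger ligase paired with a PCGF protein, and PRC2 methylates a lysine of histone H3 through EZH1 or EZH2. Canonical PRC1 carries a CBX protein, which reads the PRC2 mark, and a PHC protein, which can polymerise, whereas variant PRC1 carries RYBP or YAF2 and other PCGF proteins. In ES cells both complexes sit at CG-rich promoters of developmental regulators, and both marks spread over the X chromosome that Xist coats.

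The promoters of Cbx7, Phc1 and Ring1 are shown because these genes gave some of the largest changes described below, downward for Cbx7 and Phc1 and upward for Ring1. Each sequence is the 250 bases before the RefSeq start site in GRCm38.p6, on the minus strand, written 5′ to 3′ with every CG pair in capitals. The windows are chr15:79932647-79932896 for Cbx7, chr6:122340228-122340477 for Phc1 and chr17:34024681-34024930 for Ring1.
Cbx7: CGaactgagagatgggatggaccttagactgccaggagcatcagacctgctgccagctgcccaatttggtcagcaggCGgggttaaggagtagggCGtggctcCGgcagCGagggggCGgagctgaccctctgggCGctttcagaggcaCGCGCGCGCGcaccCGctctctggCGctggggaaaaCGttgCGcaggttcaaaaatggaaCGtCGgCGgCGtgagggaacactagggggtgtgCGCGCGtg
Phc1: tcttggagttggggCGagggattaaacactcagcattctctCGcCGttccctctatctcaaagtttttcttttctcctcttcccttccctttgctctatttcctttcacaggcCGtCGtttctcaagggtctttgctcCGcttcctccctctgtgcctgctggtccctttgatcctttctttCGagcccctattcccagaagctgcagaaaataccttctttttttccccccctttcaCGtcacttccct
Ring1: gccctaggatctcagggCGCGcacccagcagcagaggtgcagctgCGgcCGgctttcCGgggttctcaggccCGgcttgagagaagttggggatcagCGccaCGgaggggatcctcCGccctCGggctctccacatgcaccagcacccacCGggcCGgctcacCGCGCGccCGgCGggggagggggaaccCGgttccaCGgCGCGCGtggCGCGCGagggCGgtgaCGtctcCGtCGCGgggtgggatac
The pair CG, which reads the same on both strands, occurs 23 times before Cbx7, 8 times before Phc1 and 30 times before Ring1. RefSeq promoters were found for 27 of the 31 genes. The 39 promoters of these genes held a median of 20 CG pairs, against 6 over the 32851 promoters of 27025 genes, and 32 of the 39 (82.1%) held 10 or more, against 37.8% of all promoters. All promoters here include those of genes not tested for RNA, and a gene with several promoters counts once for each. Cbx7 and Phc1, which both fell in differentiation, differ in the CG content of these windows, and CG content was not tested against any change in RNA.

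Library totals lay between 3594551 counts for RepB on day 8 and 17773138 for WT on day 5, so that 3 counts equal 0.169 to 0.835 CPM. CPM are counts scaled to the TMM-normalised total of each library. The label ES cell was checked on markers: the 10 ES cell markers summed to 5940 to 7080 CPM on day 0 and to 390 to 3120 CPM over days 5 to 10, and 9 of 10 fell. The 8 fibroblast markers summed to 673 to 801 CPM on day 0, after growth on feeders, and to 55.3 to 13800 CPM later. Summed markers of mesoderm were at 26.5 and 31.5 CPM on day 0 and between 154 and 1700 CPM later. Later values lay between 15.5 and 641 CPM for endoderm (17.5 and 20.2 on day 0), 13.9 and 481 CPM for cardiac muscle (6.12 and 6.74), and 2.9 and 749 CPM for blood (4.3 and 4.8). They lay between 30.2 and 323 CPM for endothelium (200 and 203 on day 0) and 91.7 and 389 CPM for neural cells (193 and 256). No marker was at 0 in every library. Markers of several cell types thus moved over the same days as the Polycomb genes, and their part in the values below was not tested. In such bulk samples, fewer cells of a type and less RNA per cell cannot be told apart.

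Polycomb genes moved in both directions on differentiation. Compared with day 0, 9 of the 31 genes were higher over days 5 to 10, 13 were lower and 9 did not pass the test (edgeR's quasi-likelihood test with Benjamini-Hochberg adjustment, threshold 0.05). The 22 called genes are 71% of the members, beside 64.1% of all genes tested (31.7% higher and 32.3% lower), so the share called was near the background. The log2 change, the mean of the 5 later days less day 0 averaged over both lines, had a median of -0.05 over the members and 0.01 over all genes. Of the 20 PRC1 genes 6 were higher and 8 lower, and of the 11 PRC2 genes 3 were higher and 5 lower. Within WT alone 17 members were called, 8 higher and 9 lower, beside 55% of all genes (26.7% and 28.3%). Within RepB alone 20 were called, 7 higher and 13 lower, beside 47.5% of all genes (22.5% and 25%). Day 0 is 1 library in each line and adds no spread of its own, so the error in these tests is the spread of the RepB-to-WT difference over days 5 to 10. In a fit without the day term, whose error includes the spread between days, 9 of the 22 calls remained (Ring1, Pcgf2, Rybp, Yaf2, Bcor, Ezh1, Suz12, Aebp2 and Mtf2), beside 25.5% of all genes called. Within single lines that fit called 2 members in WT, beside 10% of all genes, and 0 in RepB, beside 4.78%.

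**Figure D1:**
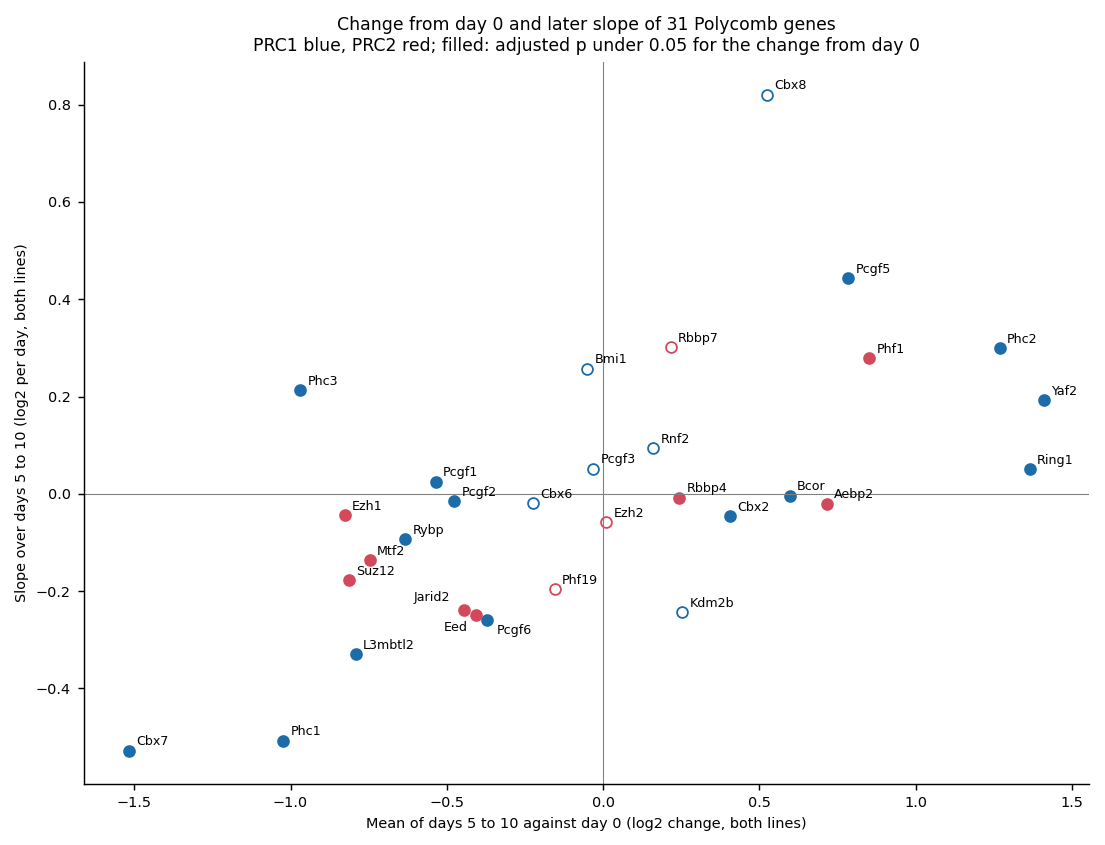
Each of the 31 genes by its log2 change from day 0 to days 5 to 10 (horizontal) and its log2 slope per day over days 5 to 10 (vertical), both averaged over the lines, with PRC1 genes in blue, PRC2 genes in red and filled points where the change from day 0 passed the test. Cbx7 (-1.52 and -0.53) and Phc1 (-1.02 and -0.51) lie at the lower left, Yaf2, Ring1 and Phc2 at the right, and Cbx8, with a slope of 0.82, at the top.

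The genes also moved within the differentiation period. Over days 5 to 10, a straight line in days fitted to the 10 libraries was upward for 9 members, downward for 10 and not called for 12 (edgeR's quasi-likelihood test). These 19 genes are 61.3% of the members, beside 54.5% of the 12948 genes tested (27.9% upward and 26.6% downward). Cbx7, Phc1, L3mbtl2, Pcgf6, Rybp, Eed, Suz12, Jarid2 and Mtf2 were lower than on day 0 and had falling slopes. Pcgf5, Phc2, Yaf2 and Phf1 were higher than on day 0 and had rising slopes. Ring1, Cbx2, Bcor, Aebp2 and Rbbp4 were higher without a called slope, and Pcgf1, Pcgf2 and Ezh1 were lower without one. Rnf2, Bmi1, Cbx8 and Rbbp7 had rising slopes and Kdm2b a falling one, with no called change from day 0. Phc3 went below its day 0 level and then rose. Values in each library are given below for genes with a called log2 change of at least 1, for the catalytic and core genes, and, added after their values were seen, for those with a called slope of at least 0.25 per day and some further members. They are listed in day order, for days 0, 5, 6, 7, 8 and 10.

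**Figure D2:**
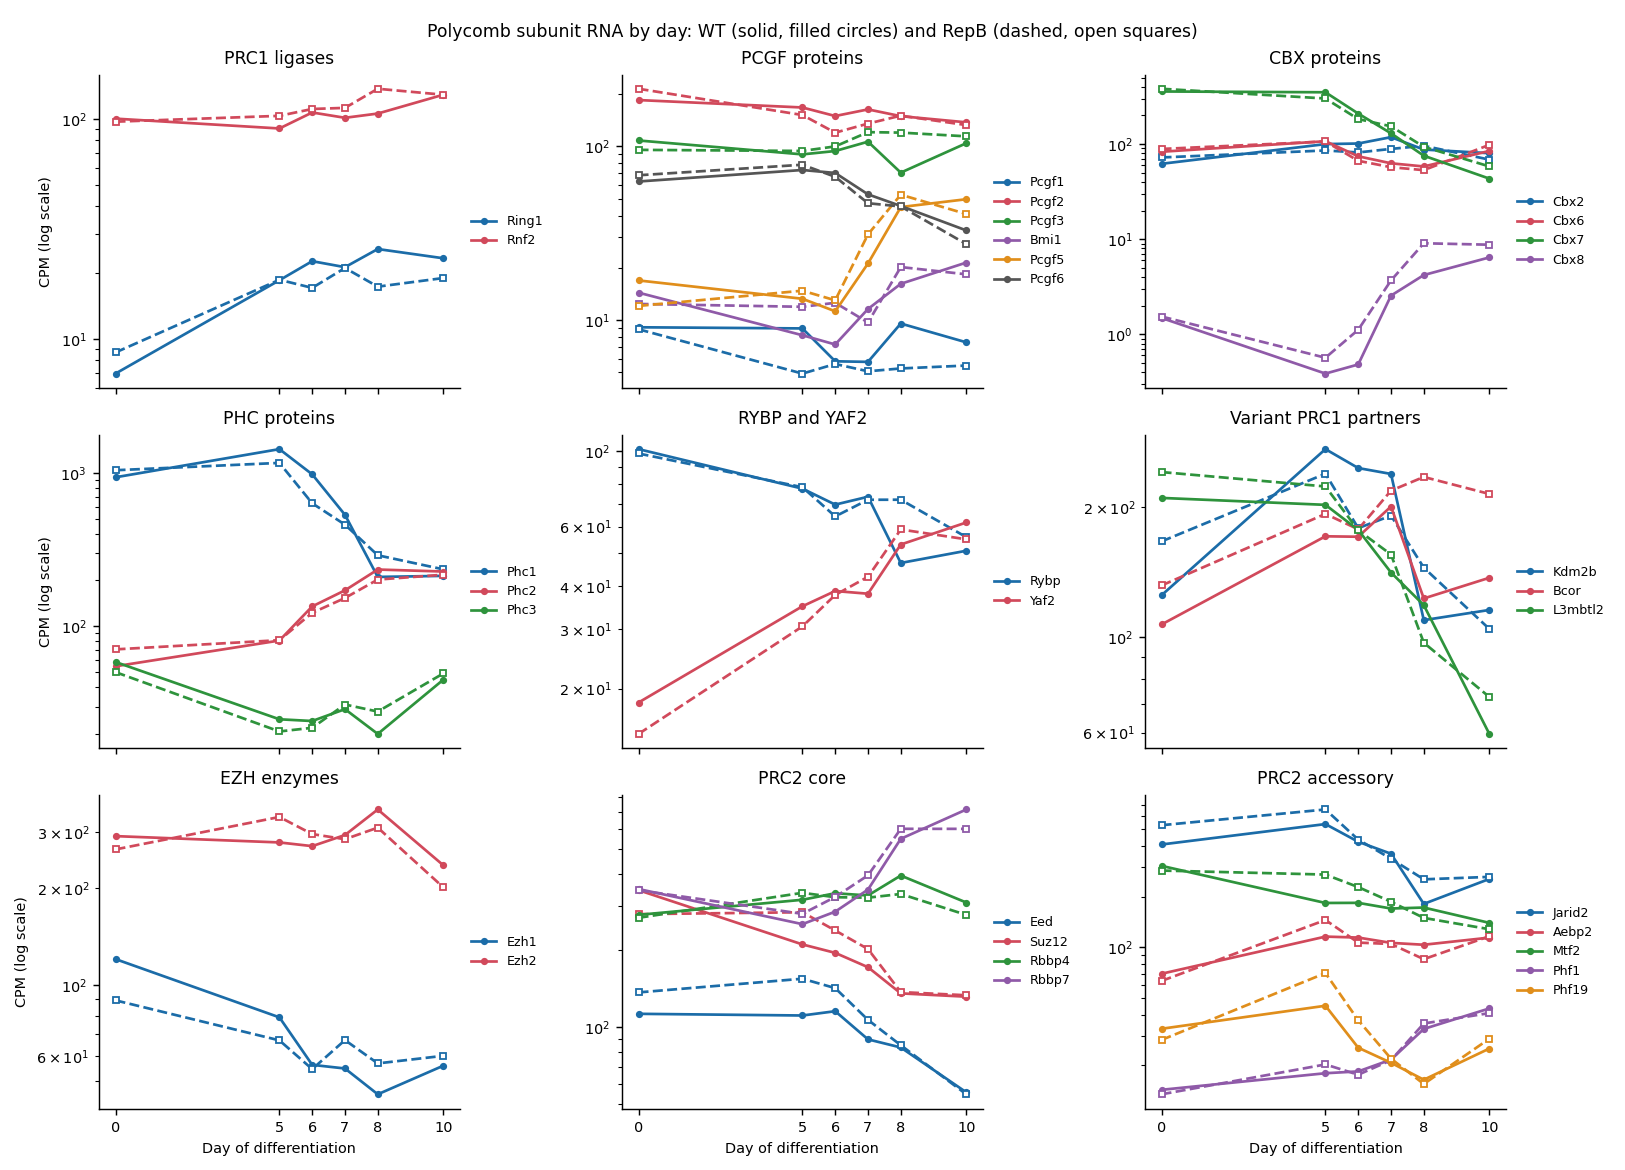
Level of each Polycomb gene in CPM (log scale) against day of differentiation, 1 panel per group of subunits, with 1 library per point, WT as solid lines with filled circles and RepB as dashed lines with open squares. Cbx7 falls from 358 to 43.4 CPM in WT while Cbx8 goes from 1.49 to 6.44 CPM, and the lines of the 2 genotypes run close together in most panels.

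The ligases of PRC1 are RING1 (Ring1) and RING1B (Rnf2), the catalytic RING-finger proteins of every PRC1. Ring1 stood at 6.95, 18.5, 22.6, 21.2, 25.6 and 23.2 CPM in the WT libraries and at 8.67, 18.6, 17.1, 21, 17.3 and 18.9 CPM in the RepB libraries. In both lines all later libraries were above day 0, with no overlap, and the change was a 2.58-fold rise, a log2 change of 1.37 (SE 0.16, adjusted p = 9.85e-06). Rnf2 stood at 100.4, 90.6, 107, 101, 106 and 129 CPM in the WT libraries and at 97.3, 103, 111, 112, 137 and 129 CPM in the RepB libraries. Its later libraries overlapped day 0 in WT and lay above it in RepB, the log2 change from day 0 of 0.16 (adjusted p = 0.175) was not called, and its slope was 0.09 (SE 0.023, adjusted p = 0.00567). Per length, using RPKM (CPM per kilobase of summed exon length), Ring1 made 9.33% of the summed level of both genes in WT and 11.7% in RepB on day 0, and 21.2% and 17.9% on day 10. Rnf2 was thus the more abundant ligase RNA in every library, and the rise of Ring1 was in place by day 5.

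PCGF proteins pair with the ligase and set the type of PRC1: PCGF2 and BMI1 (also PCGF4) belong to canonical PRC1, and PCGF1, PCGF3, PCGF5 and PCGF6 to variant forms. Pcgf5 stood at 16.9, 13.3, 11.2, 21.2, 44.7 and 49.6 CPM in the WT libraries and at 12.1, 14.8, 13, 31.1, 52.7 and 40.8 CPM in the RepB libraries. Days 5 and 6 were low and days 8 and 10 high in both lines; days 5 to 10 overlapped day 0 in WT and not in RepB. Pcgf5 rose by 0.79 (SE 0.15, adjusted p = 7.01e-04) log2 from day 0 and by 0.44 (SE 0.081, adjusted p = 0.00104) log2 per day over days 5 to 10. Pcgf6, whose complex includes L3MBTL2, stood at 62.8, 73.1, 70.3, 52.9, 45.4 and 32.8 CPM in the WT libraries and at 68.2, 78.4, 66.8, 47.1, 45.1 and 27.4 CPM in the RepB libraries. It was highest on day 5 in both lines and lowest on day 10, below day 0. Its slope was -0.26 (SE 0.027, adjusted p = 3.44e-05), and its change from day 0 of -0.37 (adjusted p = 0.00596) was lost without the day 10 libraries (log2 -0.18, adjusted p = 0.149) and was -0.56 without day 5.

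Bmi1 stood at 14.4, 8.18, 7.24, 11.6, 16.2 and 21.4 CPM in the WT libraries and at 12.4, 11.9, 12.6, 9.69, 20.2 and 18.4 CPM in the RepB libraries. Its levels overlapped day 0 in both lines and were highest on day 10 in WT and day 8 in RepB; the slope was 0.26 (SE 0.056, adjusted p = 0.00297), with no called change from day 0. Pcgf2 stood at 185, 167, 149.5, 163, 149 and 138 CPM in the WT libraries and at 214, 152, 119.9, 135, 150.2 and 133 CPM in the RepB libraries. It was below day 0 in every later library of both lines and fell by 0.48 on the log2 scale (SE 0.092, adjusted p = 6.99e-04), without a called slope. Pcgf1 ran from 4.92 to 9.56 CPM, and its fall of -0.54 (adjusted p = 0.0239) was not called by DESeq2 (adjusted p = 0.0897) or without day 7 (adjusted p = 0.061). Pcgf3, at 70.6 to 121 CPM, had a log2 change of -0.03 (adjusted p = 0.845). Per length, Pcgf2 held the largest share of the 6 PCGF genes in all 12 libraries, 43.5% in WT and 48.7% in RepB on day 0 and 34.8% and 36.3% on day 10. The share of Pcgf5 went from 7.49% and 5.15% on day 0 to 23.6% and 21%, while that of Pcgf6 went from 20% and 20.9%, through 26.3% and 26.7% on day 6, to 11.2% and 10.1%. The summed PCGF level went from 150 and 155 RPKM on day 0 to 139 and 129 RPKM on day 10.

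CBX proteins give canonical PRC1 its chromodomain, the module that binds the methyl mark of PRC2. Cbx7, the main CBX gene of mouse ES cells, stood at 358, 351, 209.5, 129.9, 75.6 and 43.4 CPM in the WT libraries and at 382, 302, 183, 154, 93.7 and 58.3 CPM in the RepB libraries. Every later library lay below day 0 in both lines, although day 5 of WT was close to it, and levels went down at each step from day 5 to day 10. The fall was 2.86-fold, a log2 change of -1.52 (SE 0.11, adjusted p = 2.74e-07), and the slope was -0.53 (SE 0.04, adjusted p = 5.96e-06) log2 per day. Cbx8 stood at 1.49, 0.387, 0.483, 2.56, 4.21 and 6.44 CPM in the WT libraries and at 1.54, 0.568, 1.12, 3.69, 9.08 and 8.76 CPM in the RepB libraries. Its lowest libraries, those of day 5, rest on 7 counts in WT and 3 in RepB. It was below day 0 on days 5 and 6 and above it from day 7 in both lines. Its slope of 0.82 (SE 0.13, adjusted p = 4.20e-04) was the steepest of the 31 genes and was 1.33 without day 10, while the change from day 0 of 0.52 (adjusted p = 0.126) was not called unless day 5 or day 6 was left out (log2 1.02, adjusted p = 0.00907, and log2 0.87, adjusted p = 0.0244). It was 0.16 without day 8 (adjusted p = 0.683), 0.08 without day 10 (adjusted p = 0.853) and 1.22 without the day term (adjusted p = 0.474).

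Cbx2 stood at 62.1, 100.1, 102, 118, 87.7 and 80.3 CPM in the WT libraries and at 72.4, 85.8, 81.8, 89.1, 96 and 68.7 CPM in the RepB libraries. It was above day 0 in all later WT libraries and in all RepB libraries but day 10, and rose by 0.41 (SE 0.11, adjusted p = 0.00688) log2. Within single lines it was called in WT (log2 0.62, adjusted p = 0.00605) and not in RepB (log2 0.20, adjusted p = 0.325), and the difference between the lines was not called (log2 -0.42, adjusted p = 0.601). Cbx6, at 53.3 to 107 CPM, peaked on day 5 and had its low on day 8 in both lines. Its log2 change of -0.22 (adjusted p = 0.0692) was not called, but it was with limma-voom (adjusted p = 0.0439), with library totals in place of TMM (0.0265), and without day 5 (log2 -0.40, 0.00767) or day 10 (0.0226). It was -0.14 without day 7 and -0.10 without day 8. Cbx6 overlaps the coding gene Npcd and Cbx7 overlaps Apobec3 in RefSeq, and the strand setting of the counting is not stated, so reads of these neighbours cannot be set apart.

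**Figure D3:**
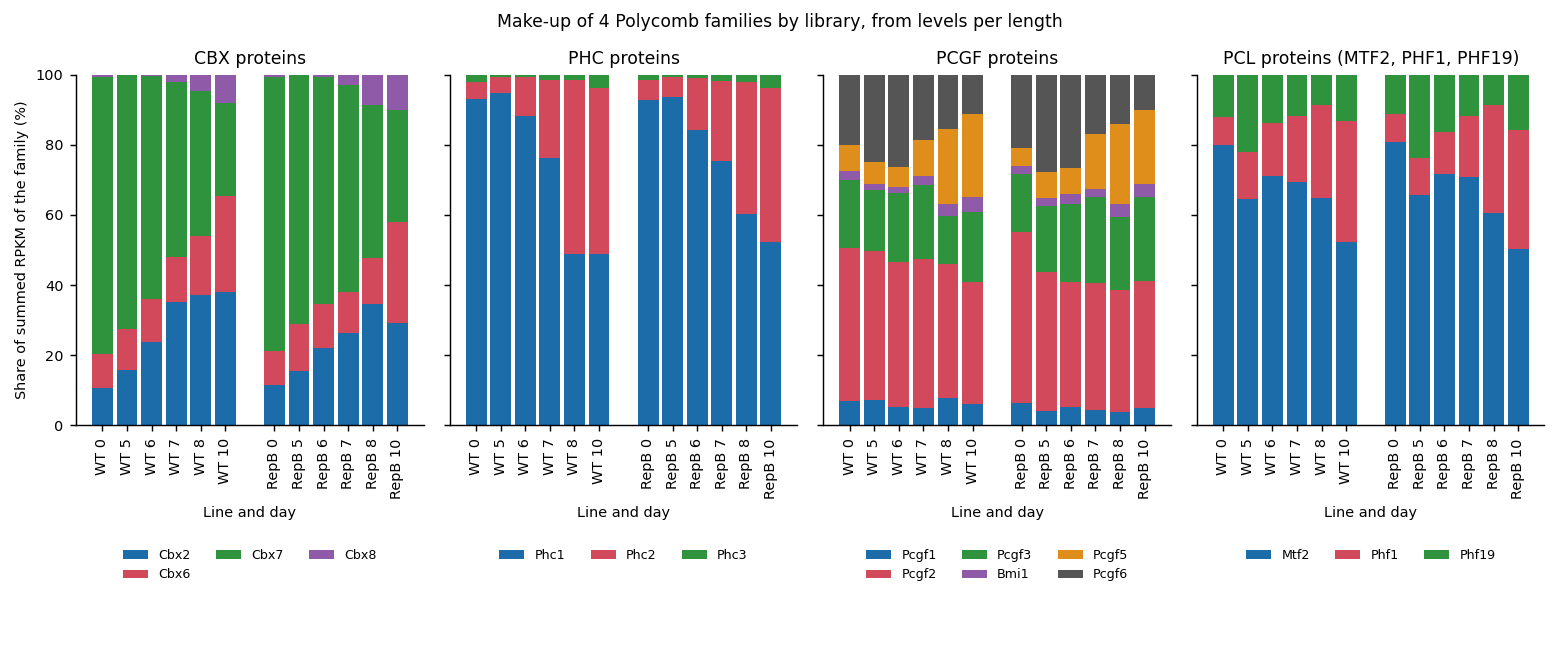
Share of each gene in the summed RPKM of its family (percent, 0 to 100), 1 bar per library in order of line and day, for CBX, PHC, PCGF and PCL genes. The green Cbx7 segment shrinks from 79% to 26.5% in WT and from 78.2% to 32.1% in RepB, and the blue Phc1 and Mtf2 segments give way to the red Phc2 and Phf1 segments.

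Per length, the CBX family went from a single dominant member to a mixture. Cbx7 made 79% of the summed CBX level in WT and 78.2% in RepB on day 0, 49.9% and 59% on day 7, and 26.5% and 32.1% on day 10. Cbx2 went from 10.6% and 11.5% to 37.9% and 29.2%, Cbx6 from 9.75% and 9.67% to 27.5% and 28.7%, and Cbx8 from 0.682% and 0.655% to 8.16% and 10%. The summed CBX level went from 157 to 56.7 RPKM in WT and from 169 to 62.9 RPKM in RepB between days 0 and 10. The log2 ratio of Cbx2 to Cbx7 was -2.90 in WT and -2.77 in RepB on day 0 and averaged -0.75 ± 1.06 and -1.07 ± 0.85 over the 5 later days (± SD). All 5 later days were above day 0 in each line, and the highest ratio was 0.52 in WT, on the day when Cbx2 passed Cbx7, and -0.13 in RepB. These ratios are described without a test.

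PHC proteins are the polymerising subunits of canonical PRC1. Phc1 stood at 936, 1429, 979, 533, 209.9 and 213 CPM in the WT libraries and at 1041, 1162, 634, 459.9, 290.4 and 235 CPM in the RepB libraries. Day 5 was the highest library of each line, above day 0, and days 8 and 10 were the lowest. Averaged on the log2 scale over both lines, days 5 to 10 were 2.03-fold below day 0, a log2 change of -1.02 (SE 0.14, adjusted p = 5.75e-05). Plain mean CPM over these days was 673 in WT and 556 in RepB, against 936 and 1041 on day 0. The slope was -0.51 (SE 0.067, adjusted p = 1.29e-04), or -0.76 per day without day 10. Phc2 stood at 54.9, 80.8, 135, 172, 234 and 228 CPM in the WT libraries and at 70.8, 81.2, 122, 153, 202 and 217 CPM in the RepB libraries. It was above day 0 in every later library of both lines, and it rose 2.41-fold, a log2 change of 1.27 (SE 0.1, adjusted p = 4.03e-07), with a slope of 0.30 (SE 0.046, adjusted p = 3.44e-04), or 0.47 per day without day 10. Phc3 stood at 58.5, 24.8, 24.1, 28.8, 19.9 and 44.9 CPM in the WT libraries and at 50.3, 20.6, 21.8, 30.9, 27.8 and 49.3 CPM in the RepB libraries. All later libraries were below day 0, and day 10 was the nearest to it; the log2 change was -0.97 (SE 0.12, adjusted p = 2.21e-05) and the slope 0.21 (SE 0.048, adjusted p = 0.00339).

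Per length, Phc1 was the most abundant of all 31 Polycomb RNAs on day 0, at 238 RPKM in WT and 265 RPKM in RepB. It made 93% and 92.7% of the PHC sum on day 0 and 49% and 52.4% on day 10, while Phc2 went from 4.93% and 5.69% to 47.3% and 43.7%. The log2 ratio of Phc1 to Phc2 went from 4.24 in WT and 4.03 in RepB on day 0 to a later mean of 1.82 ± 1.87 and 1.83 ± 1.49 (SD over 5 days). Day 5 of WT, at 4.29, was above day 0, and all other later days of both lines were below it. Without a day term, neither Phc1 (adjusted p = 0.458) nor Phc2 (adjusted p = 0.0513) nor Cbx7 (adjusted p = 0.167) was called against day 0.

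RYBP and YAF2 are paralogues that take the place of CBX proteins in variant PRC1. Yaf2 stood at 18.2, 35, 38.8, 38.1, 53.1 and 61.7 CPM in the WT libraries and at 14.7, 30.5, 37.7, 42.7, 58.9 and 55 CPM in the RepB libraries. All later libraries were above day 0 in both lines, and days 8 and 10 were the highest. The rise was 2.66-fold, a log2 change of 1.41 (SE 0.13, adjusted p = 1.24e-06), the largest rise among the 31 genes, with a slope of 0.19 (SE 0.032, adjusted p = 5.64e-04). Rybp stood at 102, 77.6, 69.7, 73.5, 46.9 and 50.9 CPM in the WT libraries and at 98.5, 78.4, 64.3, 72, 72 and 55.9 CPM in the RepB libraries. All later libraries were below day 0, and it fell by 0.63 on the log2 scale (SE 0.12, adjusted p = 5.67e-04); its RNA may share reads with the pseudogene Rybp-ps. Per length, the log2 ratio of Yaf2 to Rybp was -1.56 in WT and -1.83 in RepB on day 0, and averaged 0.42 ± 0.67 and 0.28 ± 0.51 afterwards (SD over 5 days), above day 0 on all 5 days in each line.

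Other partners define single variant complexes: KDM2B, which binds unmethylated CG DNA, and BCOR belong to the PCGF1 complex, and L3MBTL2 to the PCGF6 complex. L3mbtl2 stood at 209.7, 202, 177, 141, 118 and 59.6 CPM in the WT libraries and at 241, 223, 176, 155, 96.9 and 72.6 CPM in the RepB libraries. It was below day 0 in all later libraries and lowest on day 10, with a log2 change of -0.79 (SE 0.1, adjusted p = 2.87e-05) and a slope of -0.33 (SE 0.028, adjusted p = 1.26e-05); it overlaps the coding gene Chadl in RefSeq. Kdm2b stood at 125, 272, 246, 238, 109 and 115 CPM in the WT libraries and at 166, 239, 178, 191, 145 and 104 CPM in the RepB libraries. It was above day 0 on days 5, 6 and 7 in both lines and below it on days 8 and 10. Its slope was -0.24 (SE 0.042, adjusted p = 7.63e-04) log2 per day, and its change from day 0 of 0.25 (adjusted p = 0.115) was not called. It was called without day 8 (log2 0.38, adjusted p = 9.42e-04) or without day 10 (log2 0.42, adjusted p = 0.0343), and the value was 0.07 without day 5 and 0.14 without day 6. Within WT alone Kdm2b was called at 0.53 (adjusted p = 0.0341), and within RepB alone it was at -0.02 (adjusted p = 0.942); the difference between the lines was not called (log2 -0.55, adjusted p = 0.571). Bcor, an X-linked gene, was at 107 (WT) and 131.5 CPM (RepB) on day 0, and above that in every later library of its line. It rose 1.51-fold, a log2 change of 0.60 (SE 0.15, adjusted p = 0.00454), without a called slope.

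EZH1 and EZH2 are the alternative methyltransferases of PRC2, EZH2 being the one that dominates in dividing cells. Ezh2 stood at 291, 278, 271, 293, 352 and 236 CPM in the WT libraries and at 264, 334, 295, 284, 309 and 201 CPM in the RepB libraries. Its later libraries overlapped day 0 in both lines, with the lowest value on day 10, and its log2 change was 0.01 (95% interval -0.224 to 0.243, adjusted p = 0.951). Ezh1 stood at 120.2, 79.1, 56.2, 54.8, 45.5 and 55.9 CPM in the WT libraries and at 89.4, 67, 54.5, 67.2, 56.8 and 60 CPM in the RepB libraries. All later libraries were below day 0 in both lines, and the fall was 1.77-fold, a log2 change of -0.83 (SE 0.11, adjusted p = 4.13e-05), without a called slope. Per length, the log2 ratio of Ezh1 to Ezh2 was -1.93 in WT and -2.22 in RepB on day 0 and averaged -2.97 ± 0.43 and -2.86 ± 0.30 later (SD over 5 days), below day 0 on every day. Ezh2 held 79.2% of the pair in WT and 82.4% in RepB on day 0, and 86.9% and 84.1% on day 10.

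EED, which binds methylated histone H3, and SUZ12, the scaffold, complete the PRC2 core together with a histone chaperone, RBBP4 or RBBP7. Suz12 stood at 345, 211, 196, 172, 136 and 132 CPM in the WT libraries and at 278, 282, 239.6, 203, 137 and 133 CPM in the RepB libraries. In WT all later libraries were below day 0, whereas in RepB day 5 was slightly above it and the others below. It fell 1.76-fold, a log2 change of -0.81 (SE 0.096, adjusted p = 1.24e-05), with a slope of -0.18 (SE 0.031, adjusted p = 7.80e-04). Eed stood at 113, 111, 116, 89.5, 83.2 and 55.5 CPM in the WT libraries and at 137, 155, 142, 107, 84.9 and 54.5 CPM in the RepB libraries. Days 8 and 10 were the lowest in both lines, and days 5 to 10 overlapped day 0. Its slope was -0.25 (SE 0.03, adjusted p = 7.06e-05), and its log2 change from day 0 of -0.41 (adjusted p = 0.00464) was lost without day 10 (log2 -0.22, adjusted p = 0.11).

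Rbbp7, the other X-linked member, stood at 348, 254, 284, 347, 549 and 715 CPM in the WT libraries and at 345, 278, 324, 394, 600.5 and 600.3 CPM in the RepB libraries. Day 5 was the lowest library and days 8 and 10 the highest in both lines, on either side of day 0. The slope was 0.30 (SE 0.035, adjusted p = 5.83e-05), while the log2 change from day 0 was 0.22 (adjusted p = 0.0936), or 0.33 without day 5 (adjusted p = 0.0221), 0.11 without day 8 (adjusted p = 0.296) and 0.04 without day 10 (adjusted p = 0.748). Per length, Rbbp7 was the most abundant Polycomb RNA on day 10, at 315 RPKM in WT and 264 RPKM in RepB, the place that Phc1 held on day 0. Rbbp4, at 269 to 394 CPM, was above day 0 in all later libraries of both lines by a log2 change of 0.24 (adjusted p = 0.0425); the call was lost under 7 of 11 other settings, DESeq2 (adjusted p = 0.112) among them. Rbbp4 overlaps the coding gene Sync and Rbbp7 overlaps Txlng, with the same doubt on strand as above, and both proteins also serve other chromatin complexes.

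Accessory proteins divide PRC2 into a form with a PCL protein (PHF1, MTF2 or PHF19) and a form with JARID2 and AEBP2. Mtf2 stood at 304, 183, 184, 170.0, 172 and 139.8 CPM in the WT libraries and at 285, 270.2, 228, 186, 149.6 and 128 CPM in the RepB libraries. Every later library was below day 0 in both lines, and it fell 1.68-fold, a log2 change of -0.75 (SE 0.12, adjusted p = 1.83e-04). Phf1 stood at 14.3, 18, 18.4, 21.6, 32.9 and 43.5 CPM in the WT libraries and at 13.5, 20.3, 17.6, 21.5, 35.4 and 40.8 CPM in the RepB libraries. Every later library was above day 0, the highest being day 10 in both lines, and it rose 1.8-fold, a log2 change of 0.85 (SE 0.12, adjusted p = 6.38e-05), with a slope of 0.28 (SE 0.038, adjusted p = 1.76e-04). Phf19 ran from 15.5 to 70.4 CPM, highest on day 5 and lowest on day 8 in both lines. Its log2 change of -0.15 (adjusted p = 0.333) was not called, and it ran from -0.46 without day 5 (adjusted p = 0.011) to 0.06 without day 8 (adjusted p = 0.684).

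Per length, Mtf2 made 79.9% of the PCL sum in WT and 80.7% in RepB on day 0, and 52.2% and 50.2% on day 10, while Phf1 went from 8.04% and 8.14% to 34.7% and 34.1%. The log2 ratio of Phf1 to Mtf2 was -3.31 in both lines on day 0 and later averaged -1.65 ± 0.71 for WT and -1.76 ± 0.95 for RepB (SD over 5 days), above day 0 on all 5 days. Jarid2, the recruiter of PRC2 found at high levels in ES cells, stood at 407, 538, 423, 359, 181 and 255 CPM in the WT libraries and at 529.8, 657, 435, 336, 253 and 262 CPM in the RepB libraries. It was highest on day 5 in both lines, fell by 0.44 on the log2 scale against day 0 (SE 0.11, adjusted p = 0.00289) and had a slope of -0.24 (SE 0.052, adjusted p = 0.00306); the change was -0.69 without day 5 and -0.26 without day 8, and called in both. Aebp2, which helps PRC2 bind nucleosomes, was at 69.8 (WT) and 63.3 CPM (RepB) on day 0 and at 85.2 to 145 CPM later, with no overlap. It rose 1.64-fold, a log2 change of 0.72 (SE 0.12, adjusted p = 1.78e-04), without a called slope.

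The comparison of lines asks whether Polycomb RNA differed with the RepB genotype. None of the 31 genes passed the test between RepB and WT over days 5 to 10 (edgeR's quasi-likelihood test), beside 2.28% of all genes. Of the 31, 8 had an unadjusted p under 0.05, a larger share than the 15% of all genes, and this excess was not tested. DESeq2 and limma-voom also called 0 members. The smallest adjusted p belonged to Bcor, with a log2 difference of 0.39 (95% interval 0.121 to 0.652, adjusted p = 0.144). By day the difference of Bcor was uneven, at 0.172, 0.0569 and 0.122 on days 5, 6 and 7. It was 0.931 on day 8 and 0.643 on day 10, each from 1 library per line. The largest difference was that of Cbx8, 0.75 (95% interval 0.215 to 1.28, adjusted p = 0.16), and its interval was the only one of 31 to reach beyond -1 or 1; intervals of the other 30 lay within a factor of 2 either way. Ezh2 differed by -0.01 (95% interval -0.198 to 0.187). Without day 8, 3 members were called, beside 4.83% of all genes: Cbx2 at -0.29 (adjusted p = 0.042), Kdm2b at -0.28 (adjusted p = 0.0479) and Phf19 at 0.41 (adjusted p = 0.0499). On day 8 itself their log2 differences had the sign opposite to all other later days, at 0.131, 0.402 and -0.0808. The cause of this reversal was not tested.

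Change from day 0 was compared between the lines as well. No member was called (edgeR's quasi-likelihood test, 0.0329% of all genes, and 0 members by DESeq2 and limma-voom). Of 31 members, 4 had an unadjusted p under 0.05, beside 8.86% of all genes, a difference in share that was not tested. This comparison rests on 1 day 0 library per line. Estimates ran from -0.56 for Ring1 to 0.70 for Cbx8, and 23 of 31 intervals lay between -1 and 1, while those of the other genes reach a factor of 2 or more. The smallest adjusted p was 0.498, for Suz12, which was at 345 (WT) and 278 CPM (RepB) on day 0. For the difference of slopes over days 5 to 10, no member was called either (edgeR's quasi-likelihood test, 0% of all genes called, and 0 members by DESeq2 and limma-voom). Here 2 of 31 members had an unadjusted p under 0.05, beside 1.54% of all genes. Counts this small do not bear a statement about the members, and the shares were not tested against each other. Over the same days, 6 of the 10 ES cell markers were higher in RepB than in WT, beside 2.28% of all genes called in either direction. Of the 5 neural markers tested, 3 were lower in RepB. Col3a1, Postn, Ttr, Apoa1 and Pecam1, from the fibroblast, endoderm and endothelium lists, were higher in RepB, and the cardiac marker Myh7 was lower. No mesoderm or blood marker was called. The part of these marker differences in the differences of members was not tested. RepB libraries of days 5 to 10 were also smaller, at 3594551 to 6977752 counts, against 7763633 to 17773138 counts in WT.

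**Figure D4:**
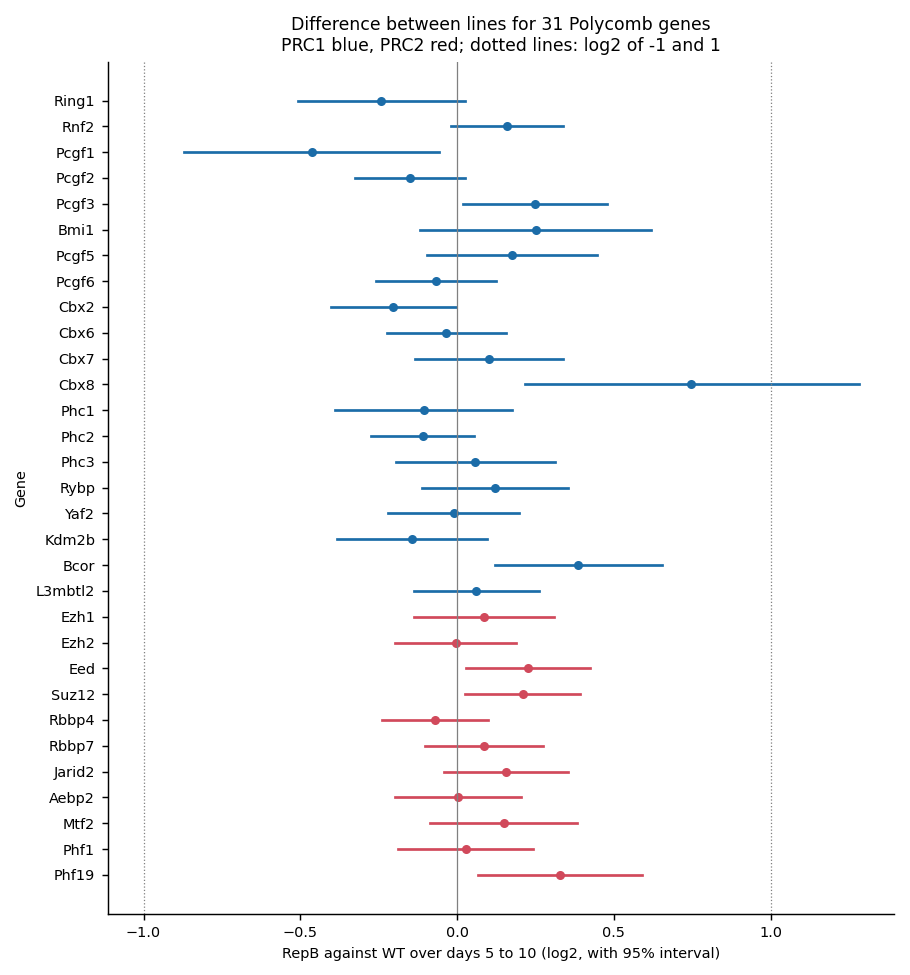
Log2 difference of RepB against WT over days 5 to 10 for each of the 31 genes (points) with its 95% interval (bars), PRC1 genes in blue and PRC2 genes in red, and dotted lines at -1 and 1. The intervals lie between the dotted lines for 30 genes, and that of Cbx8 reaches from 0.215 to 1.28.

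Allelic counts let the 2 X-linked members be followed per allele, cas for CAST/Ei and mus for 129/Sv/Jae. Of 30 members with enough allelic counts for the test, 1 differed in allelic share between RepB and WT (edgeR's quasi-likelihood test), beside 2.32% of the 9915 genes tested (1.97% with a lower cas share). This was Bcor. Among the 30, 16 autosomal genes had a cas share under 10% on day 0 in both lines, and Phc3 and Rybp had no cas counts in any library. These genes had little room for a lower cas share, so their lack of a call says little. The cas share of Bcor in WT was 46.8% on day 0 (exact Clopper-Pearson 95% interval 40.5% to 53.2%, 252 allelic counts) and 83.6%, 90.3%, 94.7%, 89.6% and 92.9% on the later days. In RepB it was 54.1% on day 0 (48.3% to 59.8%, 305 allelic counts) and 65%, 75.2%, 69.8%, 64.8% and 55.6% later, on 90 to 161 allelic counts. The lines overlapped at day 0 within these intervals, and over days 5 to 10 every WT share was above every RepB share. The later means were 90.2% ± 4.23 for WT and 66.1% ± 7.24 for RepB (SD over 5 days), a log2 odds difference of -2.15 (SE 0.26, adjusted p = 1.2e-14). In this fit the estimated prior degrees of freedom were infinite, so the spread was pooled over all genes and this p does not rest on the 5 days of Bcor alone. An exact two-sided permutation test of its shares, 5 against 5 libraries, chosen after seeing the data, gave p = 0.00794, the smallest that it can give. With every WT share above every RepB share, that outcome was already fixed, so this p adds nothing to the order of the shares. It also treats the days of 1 line as independent and leaves out the pairing by day. On the mus allele Bcor was at 7.39 CPM in WT on day 0 and at 1.11 to 3.48 CPM later, and in RepB at 8.99 CPM and then 5.59 to 11 CPM. The median cas share of 306 X-linked genes went from 50.7% to 88.1% in WT and from 51.4% to 69.1% in RepB.

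**Figure D5:**
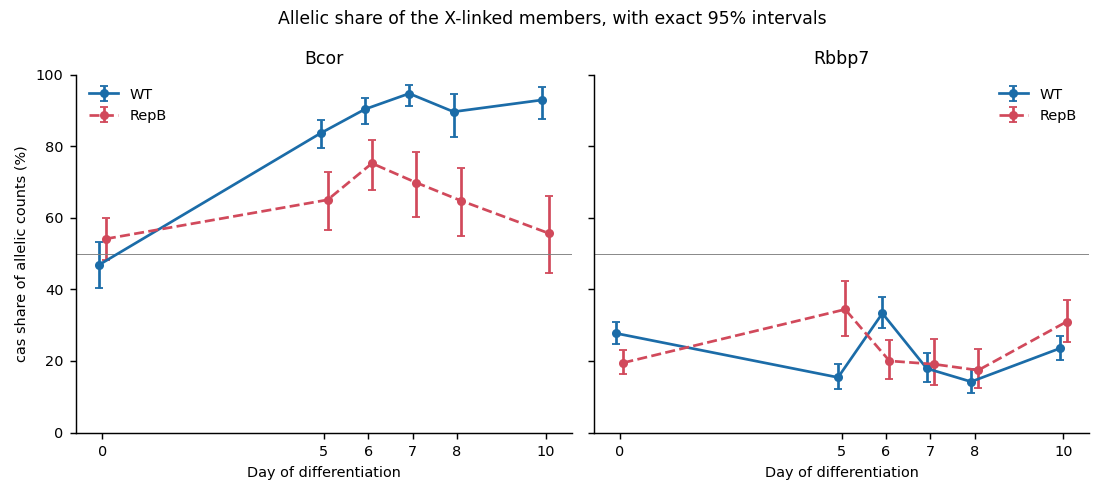
Cas share of the allelic counts (percent) of the X-linked genes Bcor and Rbbp7 against day of differentiation, 1 library per point, WT as solid blue and RepB as dashed red lines, with exact 95% intervals. Bcor reaches 83.6% to 94.7% in WT and 55.6% to 75.2% in RepB, while Rbbp7 stays between 14.2% and 34.4% in both lines.

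Rbbp7 did not show the course of Bcor. Its cas share in WT was 27.7% on day 0 and 15.4%, 33.3%, 17.9%, 14.2% and 23.5% later, and in RepB 19.5% on day 0 and 34.4%, 20%, 19.1%, 17.4% and 31% later. The mus allele was thus in excess in all 12 libraries, before differentiation too, and the cas share later averaged 20.9% ± 7.82 for WT and 24.4% ± 7.75 for RepB (SD over 5 days). The log2 odds difference between lines was 0.28 (SE 0.18, adjusted p = 1). Over days 5 to 10, 7 of the 306 X-linked genes lay below Rbbp7 in cas share in each line. Of the 28 autosomal members tested, 10 had a cas share of 25% to 75% on day 0 in both lines. Another 16 had a share under 10% in both lines, at most 8.14%, that of Phf1 in RepB, so that most of their allelic counts were mus. The test of allelic share could therefore tell little about these 16 genes. Suz12 and Kdm2b were outside 25% to 75% in WT, at 17.1% and 82.2%.

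Around the 31 genes, further lists of the pathway were read in the same fit, in which 64.1% of all genes were called against day 0 (31.7% higher and 32.3% lower). The called share was 68% of the PRC1 partners, 77.8% of the PRC2 partners, 81.8% of the genes that oppose Polycomb, 64.3% of the Trithorax and MLL genes and 71.4% of the Xist genes, in lists of 25, 9, 11, 14 and 7 genes. Of 25 facultative or auxiliary PRC1 partners, 3 were higher and 14 lower than on day 0, with a median log2 change of -0.36 beside 0.01 over all genes. L3mbtl3 had the largest rise, 1.54 (adjusted p = 1.47e-04), and Ckb (-1.38), Fbrsl1 (-1.18), Wdr5 (-1.07, also counted among the Trithorax and MLL genes) and Sfmbt2 (-1.01) the largest falls. Of 9 further PRC2 partners, 1 was higher and 6 lower, led by E130012A19Rik, which encodes the PRC2 partner EPOP, at -1.80 (adjusted p = 2.9e-07), and Zfp518b at -1.17. Among 11 tested genes for enzymes that remove Polycomb marks and for cofactors linked to them, 4 were higher, with the cofactor Asxl3 at 1.72, and 5 lower. Of 14 genes for Trithorax and MLL complexes, which methylate histone H3 at active promoters, 2 were higher and 7 lower, with Rbbp5 at -1.16.

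Of 7 genes for Xist and its link to Polycomb, 3 were higher and 2 lower, and the counts of Xist may hold reads of its antisense partner Tsix. Xist itself was at 366 (WT) and 106 CPM (RepB) on day 0 and later averaged 1160 ± 247 and 1390 ± 188 CPM (SD over 5 days), a log2 change of 2.66 (adjusted p = 5.45e-08). None of the 5 lists held a gene called between RepB and WT over days 5 to 10. The change of Xist from day 0 was called higher in RepB than in WT, beside 0.0329% of all genes called. That comparison rests on 1 day 0 library per line, and no other gene of the lists was called in it.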

How the data were processed

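The deposited table held raw read counts per gene, which the authors made for 12 RNA libraries as all reads and as reads assigned to the cas or mus allele, plus the deposited summed exon length of each gene. Per the submitters' processing notes the build was mm9 and the tools were Novoalign, TopHat, SAMtools, bedtools and featureCounts; versions, roles and the strand setting are not given in the sources used here. Columns of another day, 6 in all, matched no sample and were not used. The 31 members, the gene lists and the choice of tests were made with earlier results of these data known.

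The counts were tested with edgeR 4.0.16 under R 4.3.3 (TMM, filterByExpr on line and stage, quasi-likelihood F test, Benjamini-Hochberg adjustment over all genes tested, threshold 0.05). The design held a day factor, a RepB effect on day 0 and a RepB effect over days 5 to 10, with 4 residual degrees of freedom. Days 5 to 10 therefore served as blocks when the lines were compared. The slope fit used the 10 libraries of days 5 to 10 (7 residual degrees of freedom), and the allelic fit used their cas and mus counts where these averaged 20 or more, with a library factor (4 residual degrees of freedom, and an infinite prior, so that the spread was pooled over genes). The coefficient of variation that edgeR calls biological, the square root of the common dispersion of the fit with the day factor, was 12.2%. It reflects the spread of the RepB-to-WT difference over days 5 to 10, not the spread between cultures. The fitting code was tested on simulated data first.

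CPM are TMM-scaled, RPKM divide them by exon length, and ratios and shares are of RPKM. Intervals of shares are exact Clopper-Pearson 95% intervals, and these and the limit of 3 counts cover counting error only. Named genes were those with an absolute called log2 change of at least 1, the EZH, EED, SUZ12 and RING genes, and, added after values were seen, those with a called slope of at least 0.25 and some others. DESeq2 1.42.0, limma-voom (limma 3.58.1), library totals in place of TMM, no low-count filter, thinning to equal depth, a fit without the day term and leaving out each day were the alternatives. ChIP samples were not analysed here.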

Additional observations from a re-analysis of the deposited data

How the results depend on the processing

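Counts of called members kept within 1.5 times of the reported ones under the other settings tried, apart from those given here. Without a day term, the members called against day 0 were 9 of 22 over both lines, 2 of 17 in WT and 0 of 20 in RepB; that fit takes the spread between days as its error. With each day left out in turn, members called between RepB and WT ranged from 0 to 3, the 3 being without day 8. Directions against day 0 turned only for genes that were not called. Pcgf3 was at 0.00753 with libraries thinned to equal depth and ran from -0.071 to 0.0119 with each day left out. Bmi1 was at 0.0665 with thinned libraries and at 0.0218 without a day term, and ran from -0.21 to 0.0197 with each day left out. Ezh2 was at -0.0316 with DESeq2 and at -0.0527 with library totals in place of TMM, and ran from -0.0628 to 0.0977 with each day left out. Phf19 ran from -0.459 to 0.057 with each day left out. The log2 odds difference of the cas share of Rbbp7 ran from -0.00972 to 0.653 with each day left out, and that of Bcor from -2.44 to -1.93. The slopes of the 10 genes chosen by slope kept their direction and call under all 10 settings tried. The cause of these shifts was not tested. Depth limits Cbx8 most, since its libraries hold 3 to 64 counts.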
